A study of Mus musculus with 6 samples.

Results

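Type 1 dendritic cells of the inflamed mouse joint were examined, taken as the cells with at least 2 UMIs of Clec9a and Xcr1 together, at least 5 UMIs of H2-Ab1 and none of Siglech, Cd209a or Cd79a. A UMI (unique molecular identifier) tags a single captured RNA molecule. The members were thus chosen by measured counts of these 6 genes. The rule kept 172 of 32953 cells, or 0.522% (95% exact binomial interval 0.447 to 0.606, counting error only). All cells were CD45+ leukocytes sorted from the digested joints of male C57BL/6 mice bought as young adults. Every mouse had antigen-induced arthritis, a model in which an immune response to methylated bovine serum albumin (mBSA) is raised under the skin with complete Freund's adjuvant and then called to a single knee. The mice were immunized with 10 μg mBSA and challenged in the knee with 100 μg mBSA on day 21. From that day they received PBS, the vehicle, or 300 μg of the peptide PEPITEM by intraperitoneal injection, and joints were taken 3 days after the challenge. There were 2 PBS samples and 4 PEPITEM samples. The cell barcodes carry a library number from 1 to 6 that no source used here ties to a treatment, so PBS and PEPITEM were not compared, and the 6 libraries stand below as libraries of unknown treatment. The libraries held 2919 to 9345 cells and 47273569 to 123367661 UMIs, and a type 1 dendritic cell had a median of 23195 UMIs and 4272 genes. No p-value is given, because the pooled table counts as a single sample.

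Dendritic cells take up antigen and show its fragments to T cells. The type 1 subset is built by the transcription factors IRF8 and BATF3 and is known for cross-presentation, the display of engulfed proteins on MHC class I to CD8 T cells. CLEC9A, a lectin that binds the actin exposed by dead cells, and XCR1, the receptor for the chemokine XCL1 made by activated CD8 T cells and NK cells, are its surface hallmarks. The type 2 subset depends on IRF4 and KLF4, carries CD209a and MGL2 in mice and mainly serves CD4 T cells, and plasmacytoid dendritic cells, marked by SiglecH, are specialised makers of type I interferon. A dendritic cell that matures and leaves for the lymph node switches on Ccr7 and Fscn1.

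Clec9a lies at chr6:129408862-129424763 on the plus strand and Xcr1 at chr9:123852315-123862029 on the minus strand (mm10, which is GRCm38). The DNA just upstream of the start of these 2 rule genes, and of Plet1 and Ifi205, is shown from RefSeq (GRCm38.p6). Motifs were searched because BATF3 acts at AP-1 sites and IRF8 at interferon response elements. Plet1 and Ifi205 were among the genes most restricted to these cells. They were also the only ones of the 15 genes searched with an entry that held a match, so they do not stand for the rest. Capitals mark matches, on either strand, to an AP-1 motif or to a tandem IRF motif. The AP-1 motif searched was TGA followed by any base and then TCA. The tandem IRF motif searched was a pair of GAAA boxes with any 2 bases between them. The windows are chr6:129408612-129408861 (plus strand), chr9:123862030-123862279 (minus strand), chr9:50494275-50494524 (plus strand) and chr1:174031811-174032005 (minus strand), the last shorter because bases inside the annotated gene were left out.
Clec9a: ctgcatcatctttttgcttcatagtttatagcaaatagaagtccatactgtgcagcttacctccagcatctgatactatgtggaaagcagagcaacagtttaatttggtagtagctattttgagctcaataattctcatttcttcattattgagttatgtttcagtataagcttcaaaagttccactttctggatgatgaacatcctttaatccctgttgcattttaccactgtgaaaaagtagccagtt
Xcr1: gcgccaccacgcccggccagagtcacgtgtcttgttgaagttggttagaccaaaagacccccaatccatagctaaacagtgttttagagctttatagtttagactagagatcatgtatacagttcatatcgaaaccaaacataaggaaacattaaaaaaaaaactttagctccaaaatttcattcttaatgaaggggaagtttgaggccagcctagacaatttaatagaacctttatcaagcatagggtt
Plet1: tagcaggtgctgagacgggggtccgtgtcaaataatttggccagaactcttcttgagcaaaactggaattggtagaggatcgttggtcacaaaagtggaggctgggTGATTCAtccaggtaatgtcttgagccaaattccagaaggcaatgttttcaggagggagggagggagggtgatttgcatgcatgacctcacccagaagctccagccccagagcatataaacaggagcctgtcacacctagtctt
Ifi205: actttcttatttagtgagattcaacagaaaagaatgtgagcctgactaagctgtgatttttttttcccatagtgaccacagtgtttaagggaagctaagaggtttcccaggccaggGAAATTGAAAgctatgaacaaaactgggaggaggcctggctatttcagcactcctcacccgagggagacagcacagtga
The Plet1 window holds 1 AP-1 match and the Ifi205 window 1 tandem IRF match. Of the 20 leading genes named below and the 2 rule genes, 15 had an entry, and in their 250 upstream bases each of the 2 motifs was found in 1 gene. Over all 32851 entries, 6.75% of the 250-base windows held the AP-1 motif and 2.98% the tandem IRF motif. A composite ETS and IRF motif, in which the first box of the pair is GGAA and which can share bases with the tandem IRF motif, was in none of the 15 and in 2.30% of all windows. These matches describe letters and not bound sites.

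The share of type 1 dendritic cells differed between libraries by more than counting error. It was 0.927% (31 cells) in library 1, 0.275% (16) in library 2, 1.20% (35) in library 3, 1.03% (41) in library 4, 0.375% (35) in library 5 and 0.186% (14) in library 6. The intervals of libraries 1, 3 and 4 lay above those of libraries 2, 5 and 6 without overlap. Neutrophils, taken as cells with at least 3 UMIs of Ly6g and Retnlg, made up 11.6% of library 3 and 47.6% of library 5, and B lineage cells made up 35.8% of library 2, so the denominator varied too. Depth also moved with the share: the median cell had 14001, 13065 and 13052.5 UMIs in libraries 1, 3 and 4 and 10768, 9923 and 11237 in libraries 2, 5 and 6, and the rule counts raw UMIs. The parts of composition and of depth in the difference were not tested. Within 4 dendritic cell populations set by count rules (the type 1 cells, 643 Cd209a, 69 Ccr7 and Fscn1, and 435 Siglech dendritic cells), the type 1 cells were 172 of 1319 cells. That share was 7.69% in library 2, 6.76% in library 6 and 14.3% to 17.2% in the other 4 libraries. There were 2.80 to 5.94 Cd209a dendritic cells per type 1 dendritic cell.

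**Figure D1:**
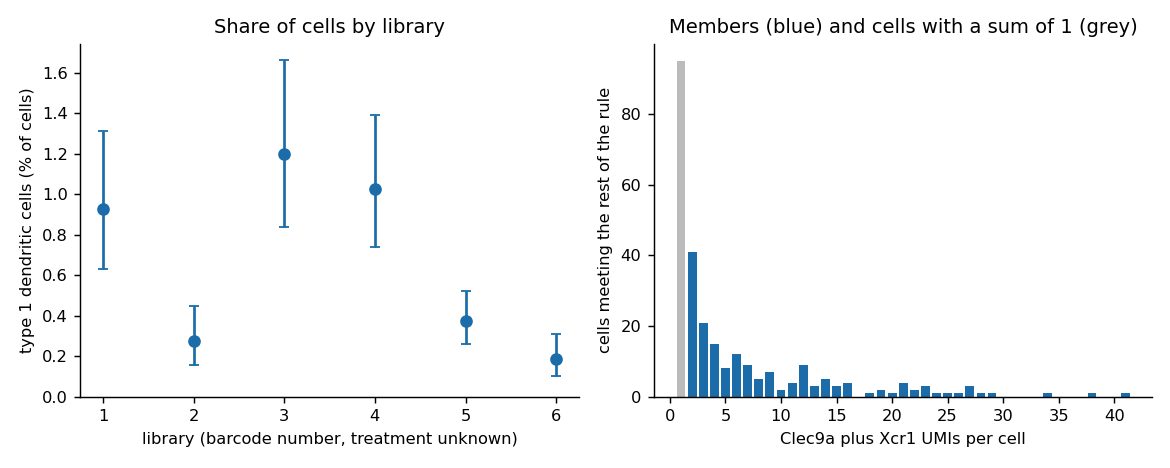
Left, percent of cells of each library (1 to 6, treatment unknown) that were type 1 dendritic cells, with 95% exact binomial intervals for counting error only. Right, number of cells that met the rest of the rule by their Clec9a plus Xcr1 UMIs, the 172 members in blue and the 95 cells with a sum of 1 in grey. Libraries 1, 3 and 4 sit near 1% and libraries 2, 5 and 6 under 0.4%.

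The members carried the 2 hallmark genes unevenly. Both were counted in 91 members, Clec9a without Xcr1 in 80 and Xcr1 without Clec9a in 1. The median sum was 6 UMIs and the highest 41, with 54 members at 10 or more. At the edge of the rule, 41 members had a sum of exactly 2, 16 of them from library 5, and 95 further cells with a sum of 1 met every other condition. These counts chose the members and are given as a description only. Clec9a stood at 219.6 UMIs per 1000000 UMIs of the population (CPM) in all members, and from 146 CPM in library 6 to 242 CPM in library 1. Xcr1 stood at 112 CPM, lowest in library 6 at 46.2 and highest in library 1 at 175. At least 1 UMI of Clec9a was found in 0.150% of 1333 T cells, of median depth 10013 UMIs, and in 0.732% of the 11614 neutrophils. It was found in 20.2% of the Siglech and 7.25% of the Ccr7 and Fscn1 dendritic cells. The rules of all 4 populations allow at most 1 UMI of Clec9a and Xcr1 together, and that of the Cd209a dendritic cells allows none.

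Markers outside the rule were high in the members as a whole, and lower in those at the edge of the rule, described further on. Batf3 was counted in 79.7% of members and in 1.80% of T cells, and in 32.7% and 0.534% after each cell was thinned to 3000 UMIs. The level of Batf3 was 124 CPM (95% Poisson interval 114 to 135), and by library 145, 91.6, 78.0, 149, 114 and 170 CPM from library 1 to 6. All 6 values lay above those of the Cd209a dendritic cells of the same libraries, whose pooled level was 27.9 CPM. Irf8 reached 642 CPM (618 to 666), with 502 in the lowest and 843 in the highest library, against 64.5 in the Cd209a dendritic cells. Neither factor belonged to these cells alone. Batf3 was higher in the Ccr7 and Fscn1 dendritic cells at 199.5 CPM, and Irf8 was higher in the Siglech dendritic cells at 1197 CPM.

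Of 21 further type 1 dendritic cell genes in the table that the rule did not use, 17 reached 50 CPM in the members or in the Cd209a dendritic cells, and 14 of these were at least 2-fold higher in the members. Over all 3640 genes tested in the same way the share was 4.92%, and the median log2 ratio of the list was 2.21 against 0.05 for all genes. The groups were set by counts that are linked to these genes. The list was also chosen with earlier results of these data known, so the counts are a description. Against all other cells pooled, 14 of 17 were higher and 1, Cd36, was lower, where 8.01% and 11.9% of 3809 genes were. Against the Ccr7 and Fscn1 dendritic cells 8 of 16 were higher and 3 lower (20.1% and 15.8% of 3835 genes), and against the Siglech dendritic cells 13 of 17 were higher and 1 lower (6.96% and 16.6% of 4137). Wdfy4, needed for cross-presentation of engulfed antigen, stood at 810 CPM against 98.6 in Cd209a dendritic cells. It ran from 477 CPM in library 2 through a median of 743 to 1036 in library 4. Cadm1, an adhesion molecule, was at 320 against 10.5 CPM, and its library values of 165 to 545 CPM lay above every Cd209a value. Itgae, which encodes the integrin CD103, was at 93.5 against 3.74 CPM and fell into a low pair, 23.5 in library 2 and 34.0 in library 6, and 4 libraries from 93.5 to 124 CPM. Tlr3, the sensor of viral RNA, was at 46.6 against 3.42 CPM. Naaa, a lysosomal lipid amidase, was at 808 against 259 CPM. The remaining 3 listed genes did not separate the populations: Zbtb46, the factor shared by conventional dendritic cells, was at 99.3 against 78.4 CPM, Itgax, encoding CD11c, at 64.2 against 72.3 CPM, and Cd36, a scavenger receptor, at 48.9 against 65.1 CPM.

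**Figure D2:**
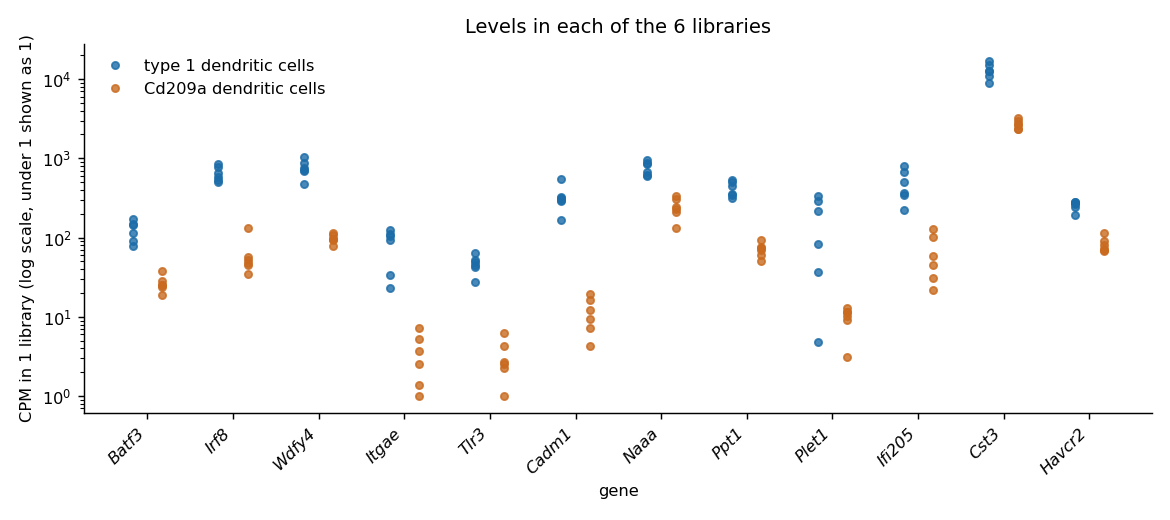
Level (CPM, log scale) of 12 genes in each of the 6 libraries, 1 point per library, for type 1 dendritic cells (blue) and Cd209a dendritic cells (orange). For every gene but Plet1 the 6 blue points lie above the 6 orange points.

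The genes most restricted to the members were found by setting each level against the highest of the 3 other dendritic cell populations. Of 3290 genes at 50 CPM or more in the members, leaving out genes used by any of the rules, 66 were at least 2-fold higher, a share of 2.01%. Ccser1, with no role assigned here, led with 251 CPM against 12.6 CPM at most elsewhere, a ratio of 19.9. Plet1, a surface protein known from epithelial and trophoblast progenitors, followed at 175 against 9.68 CPM. Its level was the least even, at 339, 82.2, 291, 36.7, 217 and 4.86 CPM from library 1 to 6. Plet1 was counted in 43 members, and 47.2% of its UMIs came from 5 cells. Sept3, of the septin family of filament proteins, was at 128 CPM with a ratio of 11.4 and stayed between 94.8 and 155 CPM. Ifi205, an interferon-inducible DNA-binding protein of the PYHIN family, was at 525 CPM against 70.0. Itgae, with a ratio of 8.47, ranked above Ifi205, with 7.50, and Wdfy4 came after both with 6.99. Itga1, a collagen-binding integrin subunit, was at 105 CPM, Ppt1, a lysosomal thioesterase, at 441, Gatm, an enzyme of creatine synthesis, at 143 and Lrrk2, a kinase acting on Rab proteins, at 359. The other 10 of the 20 leading genes were Chsy3, Mllt3, P3h2, Lrrc1, Txndc15, Hepacam2, Cadm1, Tnni2, March1 and 5730522E02Rik, at 76.1 to 320 CPM with ratios of 3.59 to 6.04. For 19 of the 20 genes all 6 libraries were above the Cd209a dendritic cells, and for Plet1 5 were. The genes were picked by the pooled ratio of these same libraries, so this is a description only.

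**Figure D3:**
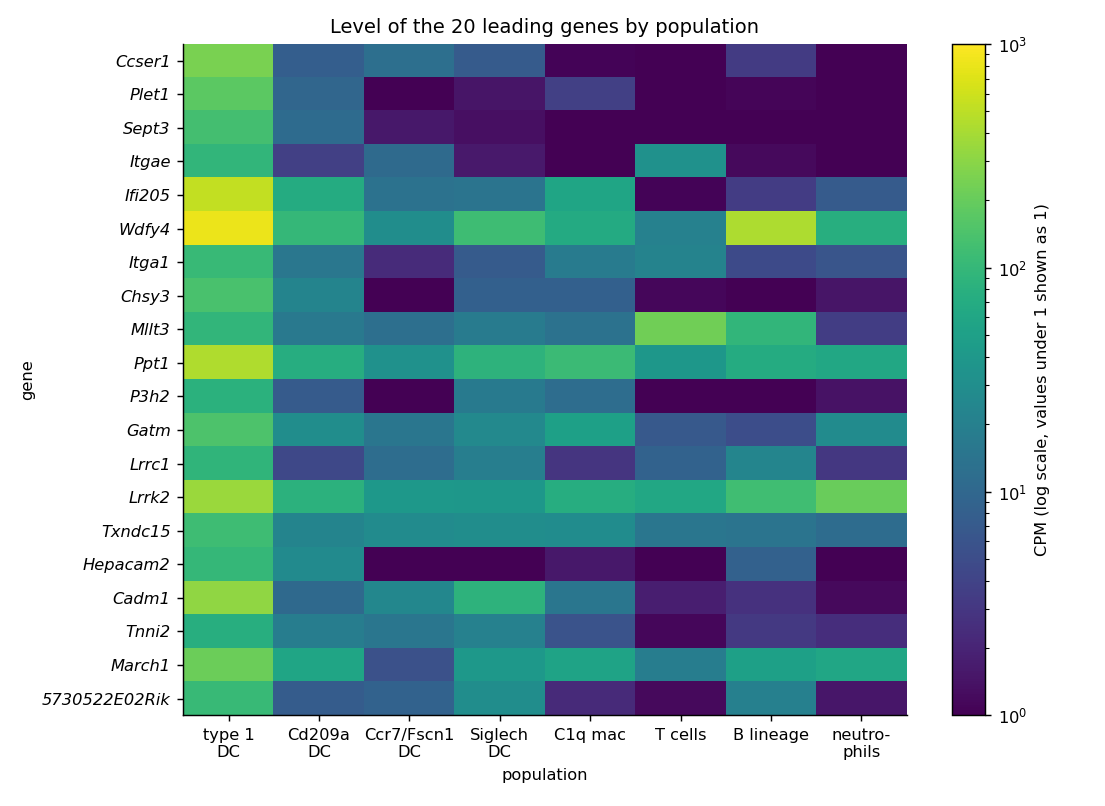
Level (colour, CPM on a log scale) of the 20 genes with the largest ratio over the other dendritic cell populations, in 8 populations (type 1, Cd209a, Ccr7 and Fscn1 and Siglech dendritic cells, C1q macrophages, T cells, B lineage cells and neutrophils). The left column is the brightest in each row except that of Mllt3, which was higher in T cells and B lineage cells.

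Restriction among dendritic cells was not restriction among leukocytes. Mllt3, a reader of acylated histones, was at 94.2 CPM in the members at 224 CPM in T cells and at 95.3 CPM in B lineage cells. Wdfy4 was at 431 CPM in B lineage cells and Lrrk2 at 209 CPM in neutrophils. Itgae was at 33.2 CPM in T cells. Ccser1, Sept3 and Hepacam2 were under 10 CPM in T cells, B lineage cells, neutrophils and C1q macrophages.

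At the other end were genes lower in the members than in each of the other dendritic cell populations. Il7r, the receptor chain for interleukin-7, was at 19.1 CPM against 123 in Cd209a, 289 in Ccr7 and Fscn1 and 258 in Siglech dendritic cells. Blnk, a linker of B cell receptor signalling, was at 13.5 CPM against 59.1 at least elsewhere, and Nrp2, a semaphorin receptor, at 21.6 against 88.9. Stat5a, the transducer of GM-CSF and interleukin-7 signals, was at 21.2 CPM against 51.4 at least. Slc44a1, Arl5c, Dirc2, Foxp4, Arhgef3 and Spred1 completed the 10 lowest, at 17.1 to 41.7 CPM with ratios of 0.284 to 0.416 to the lowest other population.

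Among 23 dendritic cell transcription factors tested against the Cd209a dendritic cells, 3 were at least 2-fold higher in the members and 4 at least 2-fold lower (over all genes 4.92% and 7.50%). Those higher were Irf8, Batf3 and Id2, which blocks E proteins and stood at 511 against 207 CPM. Those lower were Irf4 (5.86 against 103 CPM), Zeb2 (353 against 1265), Stat5a and Cebpb (394 against 826), whose ratio of 0.477 was 0.519 without library 1. Irf4 was at 0 to 11.7 CPM by library. Klf4 was at 268 against 481 CPM, below 2-fold. Bcl6, a repressor needed for full type 1 development, was at 121 CPM against 77.3 in Cd209a dendritic cells and above them in 6 of 6 libraries. Spi1, which encodes PU.1, was level at 377 against 392 CPM. Tcf4, the master factor of plasmacytoid cells, was at 108 CPM in the members and 2879 in Siglech dendritic cells.

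Type 2 and plasmacytoid markers were each set against the population chosen for a gene of that kind. Of 11 type 2 markers tested, the rule gene Cd209a left out, 7 were at least 2-fold lower than in Cd209a dendritic cells (background 7.50%) and none higher, with Mgl2 at 14.4 against 535 CPM and Clec10a at 25.5 against 273. Against the Ccr7 and Fscn1 dendritic cells 3 of 7 type 2 markers were higher and 1 lower (background 20.1% and 15.8%). Of 9 plasmacytoid markers tested against the Siglech dendritic cells all 9 were at least 2-fold lower, where 16.6% of 4137 genes were. Ly6d was at 0.225 against 1962 CPM and Cox6a2 at 0.451 against 893. Flt3, the receptor whose ligand drives dendritic cell development, was at 188 CPM (144 to 227 by library) against 61.4 in Cd209a dendritic cells, and Kit, the stem cell factor receptor, at 93.0 against 28.3. Both were above the Cd209a dendritic cells in 6 of 6 libraries. Csf1r, the receptor for M-CSF, was at 73.0 against 188 CPM.

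Of 17 genes of MHC class I and peptide loading tested, 4 were at least 2-fold higher than in Cd209a dendritic cells (background 4.92%) and none lower. Psmb8 and Psmb9, catalytic subunits of the immunoproteasome, were at 912 against 410 CPM and at 468 against 154 CPM. Psme1, a subunit of the proteasome activator PA28, was at 777 against 356 CPM, and Tap2, of the peptide transporter, at 159 against 70.5 CPM. Psmb8 by library was 1138, 674, 907, 896, 950 and 714 CPM, and the lowest library was 2. Each of these 4 genes was above the Cd209a dendritic cells in 6 of 6 libraries. Tap1 (204 against 130 CPM), Psme2 (443 against 249) and Pdia3 (504 against 320), a loading chaperone, were also above in 6 of 6 libraries but under 2-fold. The class I heavy chains were not higher, with H2-K1 at 835 against 1011 CPM and H2-D1 at 1367 against 1766 CPM, nor was B2m at 1506 against 1810 CPM. Against the Ccr7 and Fscn1 dendritic cells Psmb8 stood at 912 against 931 CPM. Of 21 genes of the list 7 were at least 2-fold lower in the members and 2 higher, where 15.8% and 20.1% of 3835 genes were.

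Of 17 cross-presentation genes tested, 2 were at least 2-fold higher and 2 lower than in Cd209a dendritic cells, where 4.92% and 7.50% of all genes were. Those higher were Wdfy4 and Rab7b, a late endosomal GTPase at 370 against 80.0 CPM. Those lower included Cybb, of the phagocyte NADPH oxidase, at 223 against 512 CPM. Rac2, the GTPase that switches on this oxidase, was at 176 against 288 CPM, lower in 6 of 6 libraries. Summed neutrophil markers (18199 against 42263 CPM) and macrophage markers (1395 against 2905) were lower in the members too. Their part in the levels of these oxidase genes was not tested. MHC class II genes were as abundant as in Cd209a dendritic cells, with H2-Aa at 6181 against 6843 CPM and Cd74 at 13845 against 17176.5. H2-Ob, which restrains peptide exchange, was the only one of 9 past 2-fold, at 63.8 against 26.1 CPM. Against the Siglech dendritic cells all 9 were at least 2-fold higher, where 6.96% of all genes were. Members and Cd209a dendritic cells were both chosen at 5 or more UMIs of H2-Ab1, a class II gene, and the Siglech dendritic cells were not, so these levels are tied to the rules and nothing is read from the counts.

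**Figure D4:**
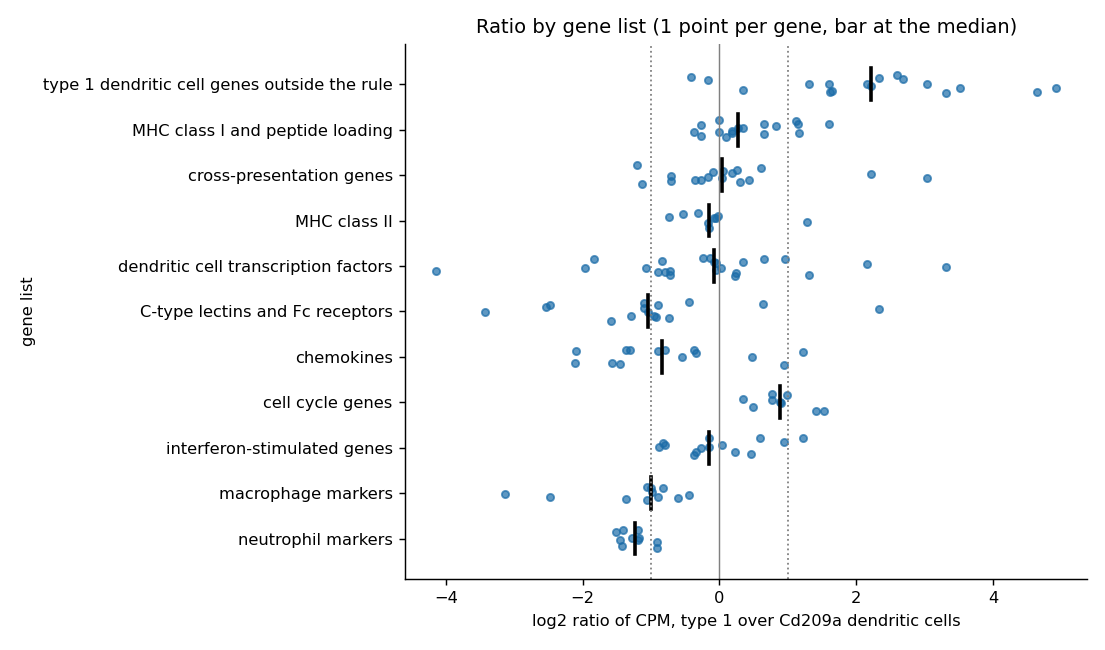
log2 ratio of CPM in type 1 over Cd209a dendritic cells for the genes of 11 lists, 1 point per gene at 50 CPM or more in either population, with a bar at the list median and dotted lines at 2-fold. The type 1 dendritic cell genes have their median at 2.21, MHC class I and peptide loading at 0.27 and the C-type lectins and Fc receptors at -1.05.

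Among lysosomal proteases and their inhibitors, Cst3 stood out. Cst3, the cystatin C inhibitor of cathepsins, was at 13363 CPM, below only Cd74 among the listed genes, and was counted in all 172 members. By library it was 17030, 12528, 10804, 15157, 12826 and 9028 CPM, every value above the Cd209a dendritic cells, which had 2702 CPM when pooled. Ctsa, cathepsin A, was at 66.7 against 183 CPM, and Ctss (880 against 1360 CPM) and Ctsb (324 against 561) were within 2-fold. Of the 14 genes tested 3 were at least 2-fold higher (Cst3, Naaa and Ppt1) and 1 lower (Ctsa), where 4.92% and 7.50% of all genes were.

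C-type lectins and Fc receptors were set against the same cells. Of 15 tested, 8 were at least 2-fold lower than in Cd209a dendritic cells and 1 higher, where 7.50% and 4.92% of genes were. Against the Ccr7 and Fscn1 dendritic cells 8 of 12 were higher and 1 lower (20.1% and 15.8%). Of the macrophage markers 6 of 11, of the monocyte markers 3 of 7 and of the neutrophil markers 8 of 10 were also at least 2-fold lower in the members than in Cd209a dendritic cells. Macrophage markers summed to 1395 CPM in the members against 2905 there. The part of such RNA in the lectin counts, and in the other genes lower than in Cd209a dendritic cells, was not tested. The lectin gene higher than in Cd209a dendritic cells was Ly75, encoding the endocytic receptor DEC-205, at 67.6 against 13.4 CPM, which was higher still in the Ccr7 and Fscn1 dendritic cells at 516 CPM. Mrc1, the mannose receptor, was at 88.8 against 495 CPM, Fcgr3 at 84.3 against 175 (a ratio of 0.524 without library 1) and Fcer1g, the shared signalling chain, at 701 against 1499. Clec12a, a receptor for uric acid crystals, was at 162 against 104 CPM and above in 6 of 6 libraries. Of toll-like receptors and adaptors only 6 could be tested, with Tlr2 at 71.9 against 153 CPM and Cd14 at 254 against 928, both past 2-fold.

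Among 9 genes of dead cell uptake tested, 2 were at least 2-fold higher than in Cd209a dendritic cells and 3 lower, where 4.92% and 7.50% of all genes were. Havcr2, which encodes TIM-3, was at 258 CPM against 82.2 in Cd209a dendritic cells, 26.8 in Ccr7 and Fscn1 and 36.1 in Siglech dendritic cells. It was even between libraries, 193 to 279 CPM. Timd4, encoding the phosphatidylserine receptor TIM-4, was at 99.8 against 46.6 CPM but was counted in 31 members, and 5 of them held 46.5% of its UMIs. It was 9.72 CPM in library 6 and 80.3 to 167 CPM in the others, and its ratio of 2.14 was 1.91 without library 2 and 1.94 without library 5. Lrp1, Pros1 and Dock1 were the 3 lower genes, Lrp1 at 65.8 against 207 CPM. The checkpoint receptor Btla was at 195 against 30.3 CPM.

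Chemokines and cytokines were compared with the Cd209a dendritic cells. Of 14 chemokines tested 6 were at least 2-fold lower and 1 higher, and of 8 cytokines 2 lower and 1 higher, where 7.50% and 4.92% of all genes were. Ccl9 was at 79.7 against 343 CPM, Ccl17 at 66.9 against 288 (counted in 11 members) and Cxcl2, which draws neutrophils, at 228 against 680. Ccl2 and Ccl7 were also among the lower chemokines, but their ratios of 0.387 and 0.404 were 0.551 and 0.615 without library 4. Il1b, the most abundant listed cytokine, was at 1889 against 3110 CPM and was lower in 6 of 6 libraries. The Cd209a dendritic cells also held more neutrophil markers (42263 against 18199 CPM summed) and macrophage markers (2905 against 1395). The part of such RNA in the lower chemokine and cytokine levels was not tested. Il12b, the p40 subunit of interleukin-12, was at 72.1 against 13.9 CPM, but 12 members held all of its UMIs and 5 of them 92.8%. Its partner Il12a was not counted in any member, where the floor of 3 counts used in ratios is 0.676 CPM. Ccl5 was at 137 against 58.9 CPM, with 747 CPM in library 2, all of it from 1 member, against 7.65 to 178 in the other 5 libraries. With library 2 left out it was at 72.8 CPM and its ratio fell from 2.33 to 1.06, and with library 4 left out the ratio was 1.66.

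Cxcl9, an interferon-γ-induced attractant of T cells, varied more between libraries than any other gene at 200 CPM or more. It was at 107 CPM in library 1, 0 in library 2, 392 in library 3, 525 in library 4, 249 in library 5 and 1339 in library 6. It was counted in 46 members, 18 of them with a Clec9a plus Xcr1 sum of 2. In library 6 it was counted in 5 members, and 3 of them held 88.7% of its UMIs there. Without the highest member library 6 was at 850 CPM. The median member of each library had none. Cxcl10 followed the same extremes, at 0 CPM in library 2 and 343 in library 6. The summed level of 29 interferon-stimulated genes, Cxcl9 among them, was 625 CPM in library 2, 4095 in library 6 and 1863 to 2359 in the other 4. The summed macrophage markers had the same extremes, 681 CPM in library 2 and 3519 in library 6, where 3 members held 95.03% of them, and their part in this difference was not tested. Library 2 held 16 members and library 6 held 14. Of 14 interferon-stimulated genes tested against Cd209a dendritic cells 1 was at least 2-fold higher, Oasl1 at 55.4 against 23.7 CPM (a ratio of 1.44 without library 6), and none lower, a share near the 4.92% of all genes.

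Maturation genes were far below the Ccr7 and Fscn1 dendritic cells, which were chosen for 2 such genes, and were compared with the other populations too. Ccr7 and Fscn1 were counted together in 3 of 172 members, or 1.74% (0.361 to 5.01), and Ccr7 with or without Fscn1 in 16, 5 of which held 77.3% of its UMIs. Members needed at least 2 UMIs of Clec9a and Xcr1, and the Ccr7 and Fscn1 dendritic cells had at most 1. The share moved with this limit, to 3.37% at 1 and 0.763% at 3, both within its counting interval. How many type 1 cells had matured was not tested, because the rule leaves out any with fewer such UMIs. Both genes were counted together in 5 of 643 Cd209a (0.778%) and 0 of 435 Siglech dendritic cells. Of 20 maturation and migration genes tested against the Ccr7 and Fscn1 dendritic cells 19 were at least 2-fold lower and none higher (background 15.8% and 20.1%). Relb was at 85.8 against 858 CPM, Cd274, encoding PD-L1, at 91.5 against 774 and Ccl22 at 27.9 against 1026. The exception was Cd83 at 732 against 1023 CPM. Against the Cd209a dendritic cells 1 of 16 was higher and 4 lower (background 4.92% and 7.50%). Against the Siglech dendritic cells 7 of 15 were higher and 2 lower (background 6.96% and 16.6%), and against all other cells 4 of 14 were higher and 1 lower (8.01% and 11.9%). The list summed to 3003 CPM in the members, 20202 in the Ccr7 and Fscn1, 4249 in the Cd209a and 2003 in the Siglech dendritic cells. Of 15 costimulatory and checkpoint genes tested against the Cd209a dendritic cells 2 were higher, Btla and Havcr2, and 2 lower, Cd40 (49.3 against 111 CPM) and Sirpa (86.5 against 206), where 4.92% and 7.50% of all genes were. The costimulatory genes Cd86 (496 CPM, against 628 in Cd209a dendritic cells) and Cd80 (145 against 225) were within 2-fold of the Cd209a dendritic cells. Of the chemokine receptors, Ccr2 was at 247 against 375 CPM. In the Ccr7 and Fscn1 dendritic cells Batf3 and Irf8 were at 199.5 and 614 CPM, and Wdfy4, Naaa and Cst3 were at 29.2, 15.8 and 4293 CPM there, against 810, 808 and 13363 in the members.

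Cell cycle transcripts were counted per cell. At least 5 of 20 listed cell cycle genes were counted in 70 members, or 40.7% (33.3 to 48.4). The share depended on that limit, at 78.5% with at least 3 genes and 24.4% with at least 8. Cycling members had more UMIs, a median of 31452 against 20059, so each cell was thinned to 3000 UMIs. The share was then 20.5% (14.7 to 27.3) of 171 type 1 dendritic cells, 8.11% (6.12 to 10.5) of 641 Cd209a dendritic cells, 8.29% (5.88 to 11.3) of 434 Siglech dendritic cells and 0 of 68 Ccr7 and Fscn1 dendritic cells, which allows up to 5.28%. Neutrophils, B lineage cells and T cells had 12.2%, 17.0% and 11.6% after the same thinning. Those intervals cover counting error only, and free RNA from other cycling cells is read by the same genes. Unthinned, the share ran from 25.7% in library 5 to 64.3% in library 6 (9 of 14 members). Mki67, a mark of cycling cells, was at 122 CPM in all members, highest in library 4 at 246 and lowest in library 5 at 43.4. Top2a, a topoisomerase of dividing cells, was at 156 against 58.6 CPM in Cd209a dendritic cells and above it in 5 of 6 libraries, with a ratio of 2.66 that was 1.86 without library 4. Of 9 cell cycle genes tested 2 were at least 2-fold higher than in Cd209a dendritic cells and none lower (background 4.92% and 7.50%), and against all other cells none of 11 was higher and 1 was lower (8.01% and 11.9%). Mki67 was counted in 27.9% of members and 32.3% of Cd209a dendritic cells, and in 12.9% and 12.0% after thinning. The identity genes did not separate cycling members from the others, with Batf3 at 126 against 123 CPM, Wdfy4 at 877 against 742 and Irf8 at 608 against 677. Timd4 was at 50.4 CPM in cycling members and 151 in the others, and Ccr7 at 30.5 and 146.5.

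The members were not alike. The 21 type 1 dendritic cell genes outside the rule, summed per cell, ran from 545 to 17613 CPM with a median of 5490. The median was 2133 CPM in the 41 members with a sum of 2, 5489 in the 77 with 3 to 9 and 7242 in the 54 with 10 or more, against 1128 in the Cd209a dendritic cells and 1358 in the C1q macrophages. In members with a sum of 2, Wdfy4 was at 264 CPM, Batf3 at 69.3, Cst3 at 6269 and Itgae at 13.7, and in members with 3 or more at 990, 142, 15690 and 120 CPM. In the 95 cells with a sum of 1, just outside the rule, Wdfy4 was at 114, Batf3 at 45.0, Cst3 at 3103 and Itgae at 1.20 CPM. Members with both hallmark genes had Wdfy4 at 1114 and Cadm1 at 503.5 CPM, those with Clec9a alone 458 and 103. C1qa, a complement gene of macrophages, was at 351 CPM in members with a sum of 2 and 91.5 in those with 3 or more, and S100a8, a neutrophil alarmin, at 18902 and 3207 CPM. The S100a8 levels came from 17 and 10 cells, with 80.3% and 86.4% of the UMIs in 5 of them, and the median cell of either group had none.

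**Figure D5:**
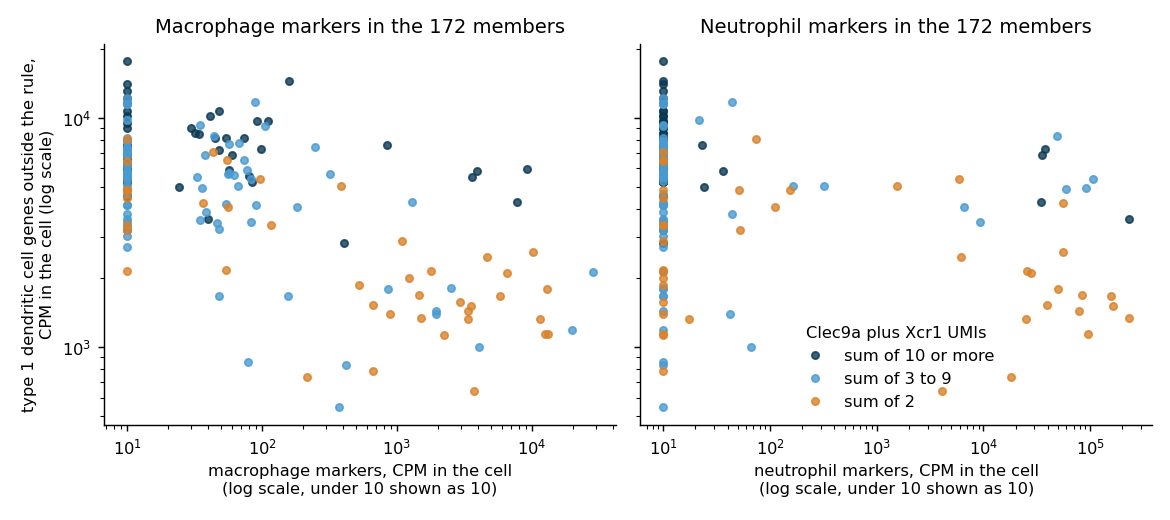
Each of the 172 members as a point, by the summed level of 21 type 1 dendritic cell genes outside the rule (CPM in the cell, log scale) against the summed macrophage markers (left) and neutrophil markers (right), both on log scales, coloured by Clec9a plus Xcr1 UMIs. Members with a sum of 2 (orange) have the lowest median identity level, 2133 CPM, and the highest median macrophage level, 666 CPM. Marker sums under 10 CPM are drawn at 10.

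Macrophage markers were counted at a median of 38.1 CPM per member and neutrophil markers at a median of 0. Among the members 662 neutrophil marker entries were stored as an explicit 0 in the counts. Whether the authors' ambient RNA correction set these to 0 was not tested. Limits were set to find the members with more of these markers. Macrophage C1q transcripts reached 5 UMIs in 22 members, Ly6g and Retnlg 3 UMIs in 25 and Cd3 chains 2 UMIs in 4, and 40 members (23.3%) met at least 1 of these limits, 13 of them in library 5. The 10 neutrophil markers, all counted, summed to 18199 CPM in the members, led by S100a9 at 7811, from 4448 CPM in library 4 to 41795 in library 2 and 41280 in library 6. These sums rested on few cells: 1 member held 97.6% of the neutrophil marker UMIs of library 2 and 1 member 67.5% of those of library 6, and without them the 2 libraries were at 1199.5 and 16148 CPM. In neutrophils the sum was 322624 CPM and in Cd209a dendritic cells 42263. The 13 macrophage markers, all counted, summed to 1395 CPM, led by Apoe at 527, and were highest in library 6 at 3519. Of 9 B cell markers Cd79a, which the rule bars, and Vpreb3 were at 0 and the sum was 82.7 CPM. Of 11 T and NK cell markers Cd8b1, Ncr1, Klrb1c and Gzma were at 0 and the sum was 22.8 CPM. Fibroblast markers were found in library 5 alone at 321 CPM, where 1 member held all 206 UMIs of Dcn. Without the 40 members, Batf3 was at 152 CPM and Ifi205 at 649, against 124 and 525 in all members.

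Over 772 genes at 200 CPM or more the highest library stood at a median of 1.52 times the lowest, and at 2.46 times or more for the upper 10%. The 10 genes that varied most were Cxcl9, Ltf, Camp, C1qb, Ngp, Fn1, AY036118, Lcn2, Ifitm1 and Wfdc21. Of these Camp, Ltf, Ngp, Lcn2 and Wfdc21 are neutrophil granule or neutrophil-rich genes. Camp was at 2667 CPM in library 2 and 25.3 in library 4, and in each of these libraries 1 member held all of its UMIs. In library 2 the same was true of Ngp, Ltf and Lcn2. C1qb was at 11.7 CPM in library 2, from 1 member, and 697 in library 6, from 3 members. Without the highest of them library 6 was at 458 CPM, and over all libraries 26 members held C1qb. Fn1, made by macrophages and monocytes, was at 14.0 CPM in library 1 and 573 in library 3. In library 3, 3 members held 88.4% of its UMIs, and without the highest member it was at 305 CPM there. Ifitm1, an interferon-induced membrane protein also abundant in neutrophils, was at 98.8 CPM in library 4 and 1295 in library 1. AY036118, which overlaps ribosomal RNA sequence, was at 21.9 CPM in library 6 and 396 in library 1.

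The genes behind the peptide itself were measured at ordinary levels. PEPITEM is cut from 14-3-3ζδ, the product of Ywhaz, and is released by B cells after adiponectin acts on its receptors. Of 9 genes of this pathway tested, none differed 2-fold from the Cd209a dendritic cells in either direction, where 4.92% of all genes were higher and 7.50% lower, so that few or none of 9 would be counted at the background share. Against the Ccr7 and Fscn1 dendritic cells 1 of 9 was lower, Appl1 at 84.9 against 291 CPM (background 15.8%), and against the Siglech dendritic cells 1 of 9, Adipor2 at 98.7 against 253 CPM (16.6%). Ywhaz was at 476 CPM in the members (411 to 520 by library) and at 422 in Cd209a dendritic cells. The adiponectin receptors Adipor1 and Adipor2 were at 78.8 and 98.7 CPM against 96.4 and 85.1.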

How the data were processed

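CD45+ cells of 6 synovial samples were analysed. Libraries were made with Chromium 3′ chemistry. The authors mapped reads to mm10 with Cell Ranger (version 7 in the submitters' processing notes), took out ambient RNA with SoupX and doublets with DoubletFinder, and filtered cells with Seurat, so no doublet caller was run again. They deposited whole UMI counts, not normalized, for 20394 genes and 32953 cells. Of the entries listed, 1724738 are stored as 0, 11637 of them in members, and whether the ambient correction set these to 0 was not tested. A 3′ UMI is counted once per molecule whatever the gene's length.

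Cells were assigned to populations by UMI thresholds: Cd209a dendritic cells had at least 2 UMIs of Cd209a, 5 of H2-Ab1 and none of Clec9a or Xcr1, and the other populations at most 1 of Clec9a and Xcr1. The members and gene lists were chosen with earlier results of these data known. Levels are UMIs of a gene summed over a population per 1000000 UMIs (CPM), with exact 95% Poisson intervals, and shares have exact (Clopper-Pearson) intervals. Both cover counting error only. A gene was tested at 50 CPM in either population, called at 2-fold, and levels under 3 counts per population were set to 3 counts. The most restricted genes needed 50 CPM in the members, and the least restricted 50 CPM in each of the 3 other dendritic cell populations. Cells were thinned to 3000 UMIs with seed 1. Named genes were up to 6 per list (highest level or largest ratio), the 20 most and 10 least restricted genes, and the 10 of largest library spread at 200 CPM or more. Where the text names more than 6 genes of a list, as for MHC class I and the transcription factors, the additional genes were chosen after their values were seen. Of 435 listed symbols 429 were in the table. Barcode sequences found in 2 libraries numbered 138 and included 1 member. Alternatives covered the rule, depth, other cells' markers, thresholds and each library. The tools were Python 3.11.15 with pandas 2.3.3, scipy 1.17.1, matplotlib 3.10.9 and numpy 2.4.6. Gene positions came from GENCODE and upstream sequences from RefSeq. PBS and PEPITEM were not compared. Some genes are not reported here.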

Additional observations from a re-analysis of the deposited data

How the results depend on the processing

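The share of type 1 dendritic cells among all cells, 0.522%, was 0.810% with at least 1 UMI of Clec9a and Xcr1, 0.398% with at least 3, 0.276% with both genes required, 0.401% without members holding markers of other cells, 0.935% without the bar on Siglech, Cd209a and Cd79a, 0.143% with cells thinned before the rule, 0.651% as a median over libraries and 0.806% without neutrophils in the denominator. It was 0.452% to 0.622% with each library left out. The share with Ccr7 and Fscn1, 1.74%, was 9.30% with Ccr7 alone and 0.730% (without library 5) to 2.29% with each library left out. At a sum of at least 1 that share was 3.37%, and at a sum of at least 3 it was 0.763% (1 member). It was 1.10% (1 member) with both hallmark genes required and 0.758% (1 member) without members holding markers of other cells. The cycling share, 40.7%, was 20.5% after thinning, 78.5% at 3 genes, 24.4% at 8 genes and 38.2% to 44.5% with each library left out. The 66 genes above every other dendritic cell population became 43 (39 shared) at a sum of at least 1, 111 (64 shared) with both genes required, 103 (64 shared) without members holding markers of other cells, 106 at 20 CPM, 29 at 3-fold and 64 to 78 with each library left out. Of 481 recomputed levels of 37 genes 215 left the counting interval, and 7 genes moved by more than 1.5 times, Tlr3 most (46.6 to 73.7 CPM with both genes required). Of 85 listed genes past 2-fold against Cd209a dendritic cells, 17 were not past it with 1 of the libraries left out, and 3 (Ccl5, Oasl1 and Timd4) were not without their highest member, in a check chosen after seeing the data. H2-Ab1 limits of 1 and 10 kept all 4 of these summary values within their intervals or within 1.5 times. No paired analysis was possible because no barcode number could be tied to a sample and so to PBS or PEPITEM. Values of the populations within each library are given as descriptions.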

Other observations

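Cells that reached 2 UMIs of Clec9a and Xcr1 but failed the rest of the rule had other levels of the identity genes. In the 153 with fewer than 5 UMIs of H2-Ab1, of which 46 came from library 6 and 39 from library 5, Irf8 was at 771 CPM, Tcf4 at 1208, Flt3 at 206 and Mki67 at 262, while Batf3 was at 4.98 and Naaa at 35.2 CPM. In the 51 with Siglech and no Cd209a, 26 of them from library 6, Tcf4 was at 2832 CPM, Irf8 at 950, Wdfy4 at 320 and Batf3 at 10.3. In the 48 with Cd209a and no Siglech, Clec10a was at 198 CPM, Batf3 at 63.0, Wdfy4 at 237, Irf8 at 367 and Itgae at 29.4, between the members and the Cd209a dendritic cells for each of these 5 genes. Chosen after their values were seen, 2 regulators further down the 66 restricted genes were Ahr, the aryl hydrocarbon receptor, at 255 CPM against 72.2 in the highest other dendritic cell population, and Pparg, a lipid-sensing nuclear receptor, at 55.0 against 25.0.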
